A study of Mus musculus with 6 samples.

Results

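The unfolded protein response and the integrated stress response were followed here through 35 genes, measured in splenic dendritic cells with and without Map3k7. The genes were taken by name from these pathways, all 35 had a probe set on the array, and they make up 35 of the 17097 genes measured. They divide into 4 sensors and transducers, 17 target genes of ATF6 and XBP1, and 14 genes of the ATF4 arm. In the knockout cells 1 of the 35, Phgdh, passed the test, and the other 34 did not.

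CD11c+ dendritic cells were sorted by flow cytometry from the spleens of C57Bl/6 mice, and total RNA of each sample was hybridised to 1 Affymetrix 3' expression array. The wild-type group (genotype WT, 3 arrays) and the knockout group (genotype Map3k7CreER, 3 arrays) had both been given tamoxifen in vivo over 3 days. In the knockout mice the drug served to delete Map3k7, the gene for the kinase TAK1, through a tamoxifen-inducible Cre. The promoter that drives the Cre, the wild-type mice's Cre status, and the mice's age and sex are not given in the sources used here. Nothing in the labels ties the samples of a group to separate animals, so the p-values measure the spread between these samples, which may be technical.

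Proteins that enter the endoplasmic reticulum (ER) are folded there by lumenal chaperones, and unfolded protein in the lumen is sensed by 3 membrane proteins, ATF6, IRE1 (gene Ern1) and PERK (gene Eif2ak3). ATF6 is cut to release a transcription factor, IRE1 splices the mRNA of the transcription factor XBP1, and PERK phosphorylates the translation factor eIF2, which lowers general translation and raises translation of ATF4. ATF6 and XBP1 switch on chaperones and the machinery that removes misfolded proteins, whereas ATF4 switches on amino acid synthesis, amino acid transport, tRNA charging and the factor CHOP (gene Ddit3). Dendritic cells are known for IRE1 and XBP1 activity without added stress, in particular those of the CD8a-positive subset. An array reports the amount of mRNA and not the cleavage, splicing or phosphorylation by which these sensors act.

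Many promoters of the ATF6 and XBP1 targets carry a short sequence, the ER stress response element (ERSE), and its matches in the members are shown here. The genes were listed as targets of these factors, so the share that holds the element is no test of the list. Windows from 250 bases before to 50 bases after the start site were read from RefSeq (GRCm38.p6) for 32 of the 35 members, and both strands were searched. The ERSE was taken as CCAAT and CCACG with 9 bases between them, and it was found in the windows of 6 of 15 ATF6 and XBP1 targets and of 0 of 14 genes of the ATF4 arm. Of all 27025 genes with a window 0.137% held it. Each sequence reads 5′ to 3′ on the strand of its gene with 15 bases on either side, and capitals mark the fixed letters of the motif, in reverse where they read CGTGG and ATTGG.
Hspa5, chr2:34772010-34772058, + strand: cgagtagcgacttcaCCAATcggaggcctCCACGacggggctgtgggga
Hsp90b1, chr10:86705623-86705671, - strand: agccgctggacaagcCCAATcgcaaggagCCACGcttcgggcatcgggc
Hsp90b1, chr10:86705518-86705566, - strand: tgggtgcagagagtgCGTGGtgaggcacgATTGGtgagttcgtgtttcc
Dnajc3, chr14:118937812-118937860, + strand: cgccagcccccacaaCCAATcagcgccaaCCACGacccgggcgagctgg
Pdia6, chr12:17266476-17266524, + strand: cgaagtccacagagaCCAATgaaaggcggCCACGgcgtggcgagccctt
Creld2, chr15:88819505-88819553, + strand: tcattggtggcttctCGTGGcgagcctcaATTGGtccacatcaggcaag
Syvn1, chr19:6046517-6046565, + strand: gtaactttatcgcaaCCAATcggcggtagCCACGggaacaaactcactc

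A shorter variant, ERSE-II, was taken as ATTGG and CCACG with 1 base between them. It was present in 2 of the 15 windows of ATF6 and XBP1 targets, those of the co-chaperone Dnajb11 and of Herpud1, against 0.0444% of all genes. Its letters can overlap an ERSE, but the members that held the 2 motifs were different ones.
Dnajb11, chr16:22857837-22857877, + strand: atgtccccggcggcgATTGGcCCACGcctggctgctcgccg
Herpud1, chr8:94386362-94386402, + strand: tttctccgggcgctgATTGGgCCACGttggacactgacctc

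ATF4 binds composite sites known as C/EBP-ATF response elements, and most of their matches in the members are shown here. The ATF4 arm was listed by name too, so the share of it that holds the element is no test of the list. The core of these elements was searched as TGATGNAA on both strands. It occurred in the windows of 5 of 14 genes of the ATF4 arm and of 1 of 15 ATF6 and XBP1 targets, Herpud1. Of all genes with a window 4.51% held it. Matches are printed for 4 of the 5 and for Herpud1. The stretch TGACGTGG, bound by XBP1 and ATF6, occurred in 0 of 32 member windows and in 0.714% of all genes. A match describes letters in the window and does not show a bound site.
Asns, chr6:7693210-7693247, - strand: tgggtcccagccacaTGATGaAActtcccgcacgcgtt
Chac1, chr2:119351034-119351071, + strand: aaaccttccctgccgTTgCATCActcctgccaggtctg
Trib3, chr2:152344024-152344061, - strand: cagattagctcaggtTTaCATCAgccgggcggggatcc
Nupr1, chr7:126625558-126625595, - strand: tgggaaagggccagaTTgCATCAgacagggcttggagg
Herpud1, chr8:94386302-94386339, + strand: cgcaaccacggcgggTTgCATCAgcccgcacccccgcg

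Levels are log2 signals after RMA, a procedure that corrects background, equalises the distributions of the arrays and summarises the probes of a probe set. A difference of 1 is a 2-fold change. The medians of the 6 arrays lay between 3.77 and 3.81, so a gene near 4 is close to the middle of all probe sets, and folds of such dim genes are understated. Map3k7 itself stood at 6.65 ± 0.06 (SD, 3 arrays) in wild-type and 4.05 ± 0.41 (SD, 3 arrays) in knockout cells. All 7 conventional dendritic cell markers examined, among them the gene for CD11c, Itgax (11.16 ± 0.16 and 10.93 ± 0.10, SD), were more than 1 log2 unit above the median of all values. Of these markers 0 passed the test between the groups, and 5 had a negative difference. Zbtb46 stood at -0.75 without overlap (limma adjusted p = 0.0621), Ciita at -0.39 with overlap, and Flt3 at 0.35 without overlap. In bulk RNA of this kind, fewer cells of a type and less RNA per cell cannot be told apart.

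Few of the 35 members passed the test, and the medians of their arms differed in sign. In the limma fit of all 45037 probe sets, at a Benjamini-Hochberg adjusted p under 0.05, 1 member rose, 0 fell and 34 did not pass, while 1.67% of all genes passed. At an unadjusted p under 0.05, 7 members were higher (20% of the list, against 8.41% of all genes) and 8 were lower (22.9%, against 8.0% of all genes). The knockout arrays lay wholly above the wild-type arrays for 7 members (20%) and wholly below them for 8 (22.9%), against 10.6% of all genes in each direction. The members were brighter than the genes they are set against. In wild type 32 of 35 members, but 7712 of 17097 genes, were more than 1 log2 unit above the median of all values. Shares among genes of like brightness were not computed. The median difference, knockout minus wild type, was -0.08 over the members and -0.02 over all genes. It was 0.31 for the 4 sensors and transducers, -0.17 for the 17 ATF6 and XBP1 targets and -0.06 for the 14 genes of the ATF4 arm. The 95% interval of a member's difference reached 0.29 to either side at the median, so a 2-fold change lay outside the interval of a typical member.

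**Figure D1:**
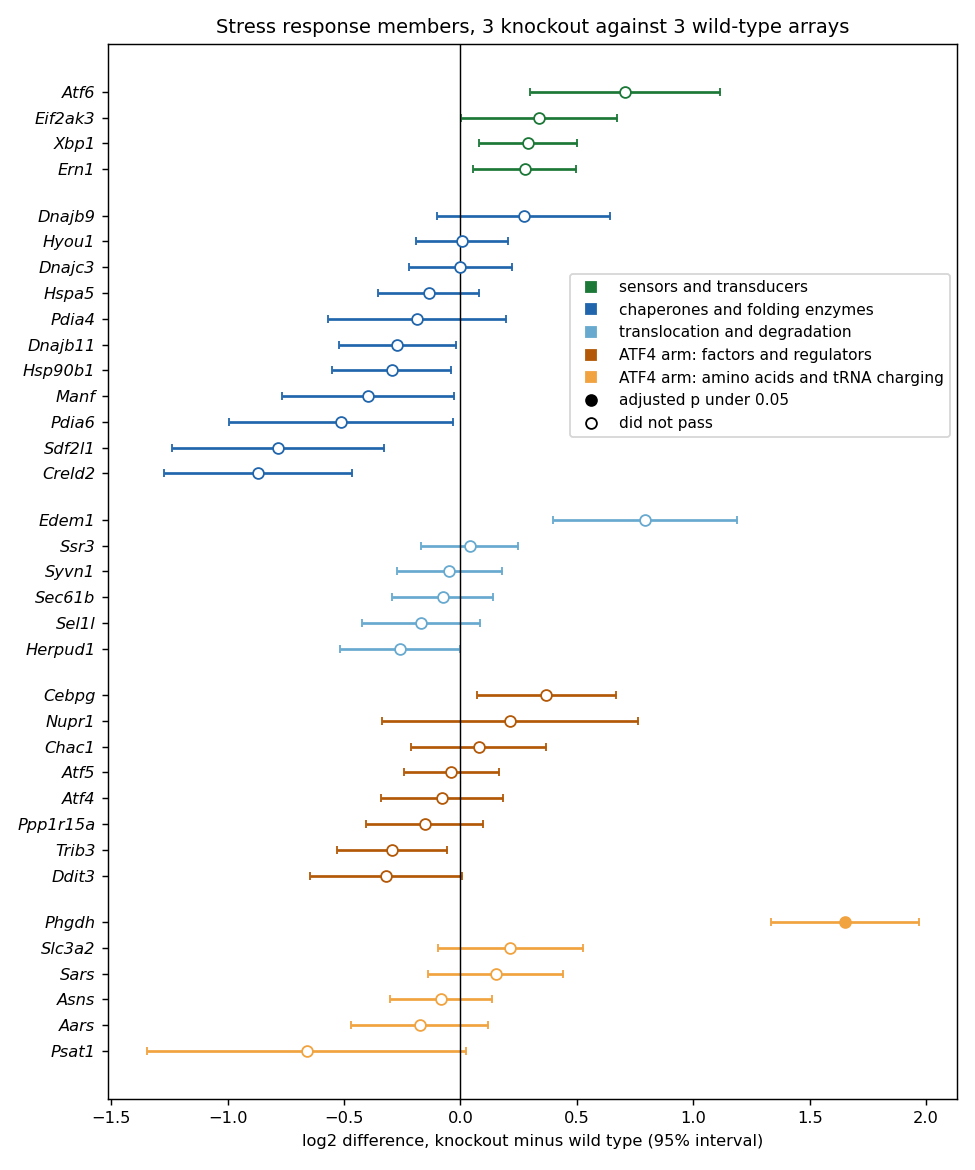
Log2 difference between knockout and wild-type arrays (x axis, 3 arrays a group) for each of the 35 members, with its 95% interval from limma, grouped by role and coloured by group. Phgdh, the filled point at 1.65, passed the adjusted threshold, and the 4 sensors and transducers all lie to the right of 0 while 8 of 11 chaperones and folding enzymes lie to the left and Dnajc3 lies on 0.

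The sensors and transducers each gave a positive difference, without passing the adjusted test. Atf6, the sensor that becomes a transcription factor when cut, read 7.71, 7.80 and 7.43 on the wild-type arrays and 8.06, 8.30 and 8.70 on the knockout arrays. The groups did not overlap, and the difference was 0.71 (SE 0.18, 95% interval 0.30 to 1.12, limma adjusted p = 0.126). The second Atf6 probe set, of similar brightness, stood at 0.36 (SE 0.16) and its groups overlapped.

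Xbp1, the transcription factor downstream of IRE1, was bright, at 10.92, 11.02 and 11.01 in wild-type and 11.19, 11.30 and 11.33 in knockout cells. Every knockout array was above every wild-type array on all 4 of its probe sets, 1 of them dim, whose differences ran from 0.29 to 0.41. The representative probe set differed by 0.29 (SE 0.09, 95% interval 0.08 to 0.50, limma adjusted p = 0.221), a 1.22-fold higher signal. The arrays gave no separate value for its spliced form.

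Ern1, which encodes the IRE1 kinase and RNase, read 8.46, 8.55 and 8.67 in wild-type and 8.80, 8.82 and 8.88 in knockout cells. Its knockout arrays were close together and above the wild-type ones, with a difference of 0.28 (SE 0.10, limma adjusted p = 0.276). Eif2ak3, which encodes the kinase PERK, read 7.54, 7.33 and 7.73 against 7.75, 7.75 and 8.11. Its groups were separate by a narrow margin, and the difference was 0.34 (SE 0.14, limma adjusted p = 0.401). The further probe sets of Ern1 (4) and Eif2ak3 (2) were dim, and as the mean of all probe sets of the gene the differences were 0.02 and 0.11.

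The lumenal chaperones and folding enzymes leaned lower, and 0 of 11 passed the adjusted threshold. Of the 11, 9 were negative (81.8%, against 53.9% of all genes), 8 of them at -0.14 or lower and Dnajc3 at 0 to 2 decimals. At an unadjusted p under 0.05, 6 were lower (54.5%, against 8.0% of all genes). All 11 were more than 1 log2 unit above the median of all values in wild type, unlike most genes. Their median difference was -0.27. The largest negative difference was that of Creld2, a secreted ER stress protein with disulfide isomerase activity, at 9.08, 9.25 and 9.05 in wild-type and 8.64, 8.20 and 7.93 in knockout cells. The groups did not overlap and the 3 wild-type arrays were close together. Creld2 differed by -0.87 (SE 0.17, 95% interval -1.27 to -0.47), a 1.83-fold lower signal, which did not pass (limma adjusted p = 0.0674). Of the 6 limma fits that leave out an array it passed in 1, without knockout replicate 1 (-1.06, adjusted p = 0.0139), and without knockout replicate 3 it stood at -0.71 (adjusted p = 0.127).

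Sdf2l1, a partner of the DnaJ-type co-chaperones in the ER lumen, read 10.68, 10.91 and 10.72 in wild-type and 10.37, 10.04 and 9.55 in knockout cells. Its knockout arrays were all lower and spread over a wider range, with a difference of -0.78 (SE 0.20, limma adjusted p = 0.129). It passed in 1 of those 6 limma fits, without knockout replicate 1 (-0.98, adjusted p = 0.0417), and stood at -0.56 without knockout replicate 3 (adjusted p = 0.187). Manf, a secreted protein that binds the chaperone BiP, read 10.35, 10.58 and 10.17 against 10.13, 10.11 and 9.68. Its groups did not overlap, and the difference was -0.40 (SE 0.16, limma adjusted p = 0.356).

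Hspa5, which encodes BiP, the main HSP70 chaperone of the ER and the regulator that holds the sensors inactive, read 12.00, 11.89 and 11.98 in wild-type and 11.76, 11.79 and 11.92 in knockout cells. The knockout arrays overlapped the wild-type range, and the difference was -0.14 (SE 0.09, limma adjusted p = 0.666). The 95% interval on this probe set ran from -0.35 to 0.08. The second Hspa5 probe set stood at -0.12, with a 95% interval from -0.38 to 0.14.

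Hsp90b1, the ER form of HSP90, read 11.24, 11.13 and 11.18 in wild-type and 11.04, 10.92 and 10.71 in knockout cells. All knockout arrays lay below the wild-type ones, on the second probe set too (-0.48), and the difference was -0.30 (SE 0.11, limma adjusted p = 0.315). Dnajb11, a co-chaperone of BiP, differed by -0.27 (SE 0.11) without overlap. The disulfide isomerase Pdia6 differed by -0.51 (SE 0.21) with overlapping groups, and its relative Pdia4 by -0.19 with an SE of 0.165. The limma adjusted p of these 3 genes lay between 0.357 and 0.754.

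The other 3 chaperone genes were near or above 0. Dnajc3, which encodes an inhibitor of the eIF2 kinases that also acts as a lumenal co-chaperone, had a difference near 0, with a 95% interval from -0.22 to 0.22. Hyou1, a large HSP70-related chaperone that exchanges the nucleotide of BiP, stood at 0.01 (95% interval -0.19 to 0.20). Dnajb9, a co-chaperone that returns BiP to IRE1, stood at 0.27 (SE 0.16), with wild-type replicate 2 at 9.13 below the other 5 arrays at 9.68 to 9.85.

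Among the 6 genes of translocation and ER-associated degradation, 0 passed and the median difference was -0.06. Edem1, which draws misfolded glycoproteins to degradation, gave the largest positive difference of the ATF6 and XBP1 targets, at 8.49, 8.24 and 8.69 in wild-type and 8.96, 9.32 and 9.52 in knockout cells. The groups did not overlap on either of its 2 probe sets, with differences of 0.79 (SE 0.17, 95% interval 0.40 to 1.19, limma adjusted p = 0.0813) and 0.52 (SE 0.16, limma adjusted p = 0.199). Edem1 also passed in 1 of the 6 limma fits that leave out an array, without knockout replicate 1 (0.94, adjusted p = 0.0376), and stood at 0.66 without knockout replicate 3 (adjusted p = 0.194). Its direction was thus opposite to that of Creld2 and Sdf2l1.

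Herpud1, a membrane protein of the degradation complex, read 11.31, 11.05 and 11.32 in wild-type and 11.02, 10.87 and 11.01 in knockout cells. Its groups were separate on both probe sets by small distances, with a difference of -0.26 (SE 0.11, limma adjusted p = 0.398). Sel1l and the ubiquitin ligase Syvn1, which form the core of that complex, stood at -0.17 (SE 0.11) and -0.05 (SE 0.10). The translocon subunit Sec61b stood at -0.08 (SE 0.09) and Ssr3, a subunit of the translocon-associated complex, at 0.04 (SE 0.09), each with overlapping groups.

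**Figure D2:**
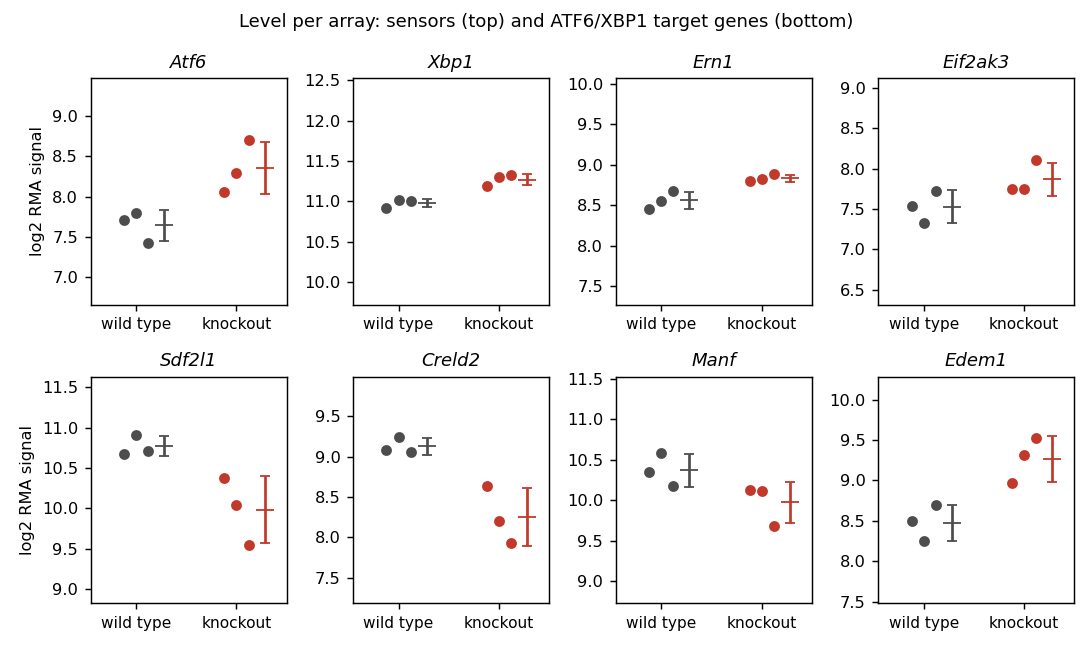
Log2 RMA signal (y axis, every panel spans the same 2.8 log2 units) on each wild-type and knockout array for 4 sensors and transducers (top) and 4 ATF6 and XBP1 targets (bottom), with points for arrays and bars for the mean and SD of 3. The knockout points lie above the wild-type points for Atf6, Xbp1, Ern1, Eif2ak3 and Edem1 and below them for Sdf2l1, Creld2 and Manf. The 4 targets were picked for display. Of all 17 targets the knockout arrays lay wholly above for 2 and wholly below for 6 (10.6% of all genes in each direction), and the others overlapped.

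The 8 members with an ERSE or ERSE-II match ran from -0.87 to 0, with a median of -0.27, and 0 of them passed. The 7 ATF6 and XBP1 targets that had a window with neither ran from -0.78 (Sdf2l1) to 0.79 (Edem1), with a median of -0.08. The 2 ranges overlap, and genes with the same motif were spread from Creld2 at one end to Dnajc3 and Syvn1 at the other. With 1 of the 10 fixed letters allowed to differ, the ERSE was found in 10 of 32 member windows, among them those of Pdia4, Sel1l and the ATF4-arm gene Ddit3, against 1.72% of all genes.

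The averages over the chaperones and over the sensors were both displaced on each knockout array, in opposite directions. Measured from the wild-type mean of each gene, the average over the 11 chaperones and folding enzymes was -0.16, -0.26 and -0.44 on knockout replicates 1, 2 and 3, and -0.02 to 0.02 on the wild-type arrays. Over the 4 sensors and transducers it was 0.27, 0.36 and 0.58, against -0.02 to 0.03. Over all genes it was 0.009, -0.003 and -0.027 on knockout replicates 1, 2 and 3. The wild-type values centre on 0 by construction, and Atf6 had the largest difference of the 4 sensors and transducers (0.71). In the chaperone and the sensor list knockout replicate 3 was farthest from the wild-type arrays and knockout replicate 1 nearest.

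Other lists were displaced on the same arrays. All 17 proliferation genes measured had a negative difference (median -0.86), 2 of them fell, Mcm2 (-1.51, SE 0.23, limma adjusted p = 0.029) and Ccne2 (-0.89, SE 0.10, limma adjusted p = 0.0106), and the list averaged -0.37, -1.06 and -1.03 on knockout replicates 1, 2 and 3. Mcm2 passed only without knockout replicate 1, with adjusted p from 0.0501 to 0.146 in the other limma fits that leave out an array, and Ccne2 did not pass without knockout replicate 2 (-0.87, limma adjusted p = 0.0733). All 9 measured genes of a heat shock list, cytosolic apart from the mitochondrial Hspe1, had a negative difference as well (median -0.29). Of these 1 fell, Hspa1b (-2.03, SE 0.23, limma adjusted p = 0.00943, and 0.0511 without wild-type replicate 2). Their part in the chaperone and sensor values was not tested.

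Markers of other cells that the CD11c+ gate could hold were examined as well. Of 7 markers of CD8a-positive dendritic cells measured, Itgae rose (1.79, SE 0.25, limma adjusted p = 0.0211), 0 fell and 6 were negative, with Cd8a at -1.47 (limma adjusted p = 0.062, and 0.0386 without knockout replicate 1) and Xcr1 at -0.81 (limma adjusted p = 0.14). Leaving out wild-type replicate 1 or knockout replicate 2 ended the limma call of Itgae (adjusted p of 0.071 and 0.106), and leaving out wild-type replicate 3 brought it to the edge of the threshold (0.05, a pass before rounding). The summed linear signal of the 7 ran from 7552 to 10464 on wild-type and from 5493 to 6816 on knockout arrays. Of 4 CD11b-positive dendritic cell markers Itgam rose (1.31, SE 0.23, limma adjusted p = 0.0466), a call that held without knockout replicate 1 and was lost, at adjusted p from 0.107 to 0.168, without each other array. The other 3 were negative, Esam at -1.10 without overlap (limma adjusted p = 0.0926), Sirpa at -0.21 and Notch2 at -0.12. Of 8 macrophage markers 3 rose, Cd163 (1.58), Cd5l (1.51) and Mertk (1.16), and 0 fell. The limma calls of all 3 were lost without knockout replicate 2 (adjusted p from 0.0535 to 0.102), those of Cd5l and Mertk also without wild-type replicates 1 and 2, and that of Cd5l without wild-type replicate 3. The other 5 macrophage markers did not pass. C1qb stood at 0.84, C1qa at 0.70, Vcam1 at 0.29, Spic at 0.005 and Adgre1 at -0.28, and only C1qa had separate groups. The macrophage markers' summed signal ran from 1555 to 1762 on wild-type and from 1742 to 2867 on knockout arrays.

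Plasma cells, the classic cells of a high XBP1 level, were represented by 4 markers, of which 0 passed. Tnfrsf17 was below the array median in both groups (3.25 ± 0.13 and 3.26 ± 0.09, SD) and Jchain was dim (4.62 ± 0.73 and 4.46 ± 0.36, SD). Prdm1, which other leukocytes express too, stood at 1.72 (SE 0.40, limma adjusted p = 0.107). Tnfrsf13b, a receptor that B cells carry too, was the brightest of the 4 (8.25 ± 0.24 and 8.98 ± 0.39, SD) and stood at 0.74 without overlap (limma adjusted p = 0.171). The summed signal of the 4, most of it from Tnfrsf13b, ran from 318 to 429 on wild-type and from 557 to 774 on knockout arrays. Of 4 plasmacytoid dendritic cell markers 0 passed, with summed signals from 773 to 1039 and from 830 to 1006. Of the neutrophil (5), erythroid (4), B cell (5) and T and NK cell (5) markers measured 0 passed. The neutrophil sum ran from 128 to 254 on wild-type and from 297 to 1398 on knockout arrays. S100a8 (2.28) and S100a9 (1.53) were its brightest genes, while Ngp (0.15), Ltf (0.14) and Camp (-0.14) were dim. The erythroid sum ran from 398 to 1745 on wild-type and from 63.3 to 169 on knockout arrays. Hba-a1 was its brightest gene, at -3.57 (limma adjusted p = 0.0713), while Alas2 (-0.25), Klf1 (-0.34) and Epor (-0.09) were dim. The B cell sum ran from 475 to 615 on wild-type and from 382 to 442 on knockout arrays. Its brightest gene was Ms4a1 (-0.51), followed by Cd79b (-0.27), while Cd79a, Pax5 and Ebf1 were dim. The T and NK cell sum ran from 193 to 243 on wild-type and from 128 to 162 on knockout arrays. Cd4 was the brightest of these genes and stood at -0.97 (limma adjusted p = 0.0535). Cd3e (-0.09), Cd3g (-0.13) and Klrb1c (-0.15) had overlapping groups, and Ncr1 (-0.22) was dim. The part of these cells in the members' values was not tested.

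**Figure D3:**
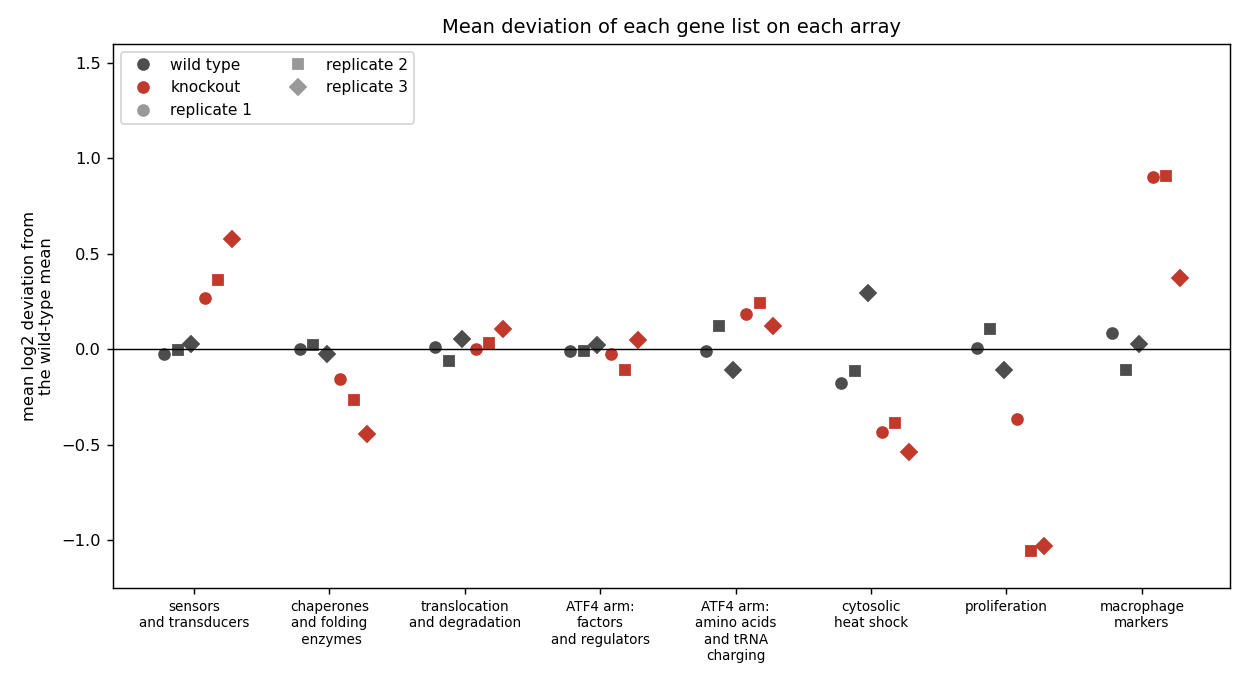
Mean log2 deviation from the wild-type mean (y axis) of 5 member groups and 3 other lists on each array, with 1 point per array, grey for wild type and red for knockout, and the marker shape giving the replicate. Sensors lie above and chaperones below the wild-type arrays on all 3 knockout arrays, the ATF4-arm factors stay between -0.11 and 0.05, and proliferation genes reach -1.06.

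The transcription factors and regulators of the ATF4 arm showed no passing gene among 8, with a median difference of -0.06. Atf4 itself, the factor translated when eIF2 is phosphorylated, read 10.73, 10.83 and 10.68 in wild-type and 10.52, 10.63 and 10.85 in knockout cells. The groups overlapped, and the difference was -0.08 (SE 0.11, 95% interval -0.34 to 0.18, limma adjusted p = 0.862). Ddit3, which encodes CHOP, a factor tied to cell death under lasting ER stress, read 7.30, 7.62 and 7.29 against 7.09, 6.87 and 7.28. The knockout arrays all lay below the wild-type ones, replicate 3 by a narrow margin, and Ddit3 differed by -0.32 (SE 0.14, limma adjusted p = 0.421). The 95% interval of this difference ran from -0.65 to 0.01.

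Other regulators differed by little or were dim. Ppp1r15a (GADD34), the stress-induced subunit that directs a phosphatase to eIF2, stood at -0.15 (SE 0.11) with overlapping groups. Cebpg, a C/EBP protein that pairs with ATF4, stood at 0.37 (SE 0.13, limma adjusted p = 0.279), with 1 knockout array (7.36) inside the wild-type range (6.99 to 7.37). Chac1, an enzyme that breaks down glutathione, stood at 0.08 (SE 0.13), and Nupr1, a small stress-induced chromatin protein, at 0.21 (SE 0.24). Trib3, a pseudokinase that CHOP induces, differed by -0.29 (SE 0.10) but lay below the array medians in both groups (3.59 and 3.30). Atf5, a factor close to ATF4, was near those medians as well, at 4.12 and 4.08, with a difference of -0.04 (SE 0.09).

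Serine synthesis gave the 1 member that passed. Phgdh, phosphoglycerate dehydrogenase, which takes the first step from glycolysis to serine, read 5.66, 6.15 and 5.79 in wild-type and 7.46, 7.61 and 7.49 in knockout cells. The groups were far apart, and the knockout arrays differed by little among themselves. Phgdh rose by 1.65 (SE 0.14, 95% interval 1.33 to 1.97), a 3.14-fold higher signal (limma adjusted p = 0.0026). It passed whichever of the 6 arrays was left out, with differences from 1.55 to 1.79. The second probe set rose by 1.90 (SE 0.19, limma adjusted p = 0.0056). Both are of types that can match several transcripts (suffix x or s), so without such probe sets Phgdh has no value.

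The next enzymes of that pathway did not pass the test. Psat1, the aminotransferase of the second step, read 7.24, 7.20 and 6.59 in wild-type and 6.98, 6.26 and 5.81 in knockout cells. Its groups overlapped and spread widely, and the difference was -0.66 (SE 0.30, 95% interval -1.35 to 0.03, limma adjusted p = 0.429). Psph, the phosphatase of the last step, is no member and was looked at after Phgdh had been seen; it stood at 0.06 (SE 0.13, limma adjusted p = 0.92). The intervals of Psat1 and Phgdh do not overlap, although the difference between the 2 genes' responses was not tested.

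The remaining 4 amino acid genes did not pass the test. Asns, asparagine synthetase and a much used readout of ATF4, lay close to the array medians at 3.92 ± 0.02 and 3.84 ± 0.11 (SD), with a difference of -0.08 (95% interval -0.30 to 0.14). Slc3a2, the heavy chain of several amino acid transporters, stood at 0.21 (SE 0.13), with knockout replicate 3 highest at 11.07. The tRNA synthetases Aars and Sars stood at -0.17 (SE 0.13) and 0.15 (SE 0.13), with overlapping groups. The 5 genes of the ATF4 arm with a TGATGNAA match had differences from -0.29 (Trib3) to 0.21 (Nupr1), and the window of Phgdh held none.

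**Figure D4:**
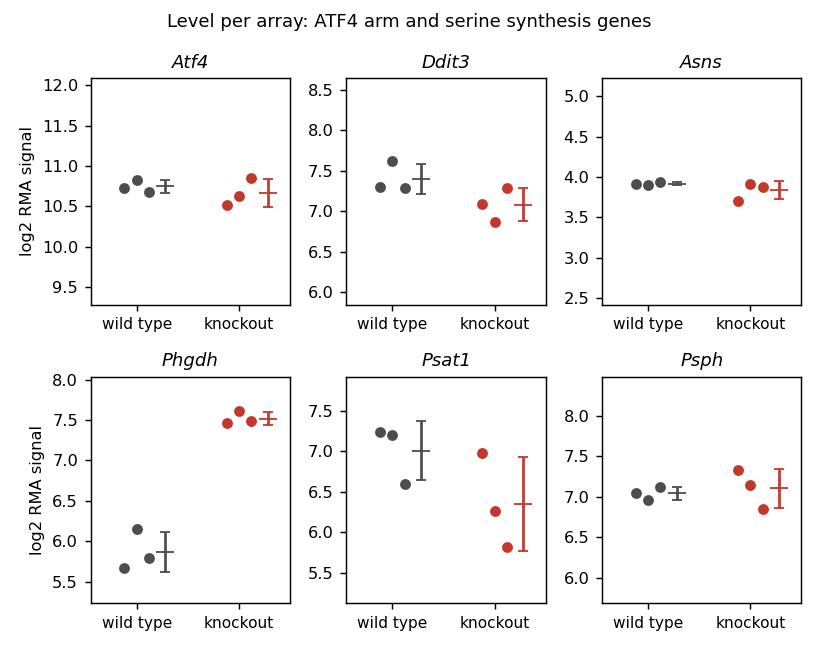
Log2 RMA signal (y axis, every panel spans the same 2.8 log2 units) on each array for Atf4, Ddit3, Asns and the 3 serine synthesis genes Phgdh, Psat1 and Psph, with points for arrays and bars for the mean and SD of 3. Phgdh is separated by more than 1 unit between the groups, while Atf4, Asns, Psat1 and Psph overlap.

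Further genes of the same pathways were taken from lists outside the members. Of 15 other ER folding genes 0 passed (median 0), and the smallest p-values belonged to the selenoprotein Selenom (0.64, limma adjusted p = 0.25) and to calreticulin, Calr (-0.41, limma adjusted p = 0.326). Of 17 other translocon, signal peptidase and degradation genes measured 0 passed (median 0). Among them Edem3, a relative of Edem1, read 7.47, 7.39 and 7.46 in wild-type and 7.84, 7.82 and 8.06 in knockout cells (0.47, SE 0.10, limma adjusted p = 0.0794). Like Edem1 it was higher on every knockout array without passing, whereas their relative Edem2 stood at -0.08 with overlapping groups. Sec62, a translocon protein that also acts in the turnover of the ER, stood at 0.51 (limma adjusted p = 0.204), but at -0.15 without x and s probe sets.

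Genes around eIF2 and other ATF4 targets had medians near 0. Of 10 eIF2 kinases, subunits and phosphatase genes measured 0 passed (median 0.02). The constitutive phosphatase subunit Ppp1r15b stood at 0.50 (limma adjusted p = 0.217) and the interferon-induced kinase Eif2ak2 (PKR) at -0.53 (limma adjusted p = 0.446). Of 17 other ATF4 target genes measured 2 rose and 0 fell (median -0.01). These were Ddit4, an inhibitor of mTORC1 that glucocorticoids and low oxygen also induce, and Jdp2, a repressor of the AP-1 family that binds CHOP. Ddit4 read 8.58, 7.97 and 8.09 in wild-type and 11.10, 11.14 and 10.99 in knockout cells. Jdp2 read 8.09, 7.60 and 8.01 against 9.08, 9.23 and 9.62, far from overlap. Ddit4 rose by 2.86 (SE 0.16, limma adjusted p = 0.000425). Jdp2 rose by 1.41 (SE 0.18, limma adjusted p = 0.0129), a call lost without wild-type replicate 1 (0.0513) or knockout replicate 2 (0.077). Of 14 other cytosolic tRNA synthetases measured 0 passed (median 0.02), with Qars at 0.31 (limma adjusted p = 0.201) and Nars at 0.39 (limma adjusted p = 0.218).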

How the data were processed

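Each of 6 samples was hybridised to 1 array after biotin labelling of 100 ng of total RNA, per the labels' protocols. The deposited values are log2 signals that the authors computed with RMA, and the submitters' processing notes name Affymetrix Expression Console 1.1. The log2 scale was read from the values (2.58 to 13.9). Precision is limited by the number of arrays. Of 45141 probe sets 104 controls were left out. The platform annotation gave 28898 probe sets 1 symbol, 551 several and 15588 none, and genes were named from 1-symbol probe sets. Each gene's brightest probe set, by the mean of the 6 arrays, stood for it, and its further probe sets served as a check: of 20 members with more than 1, 13 had all in 1 direction. Listed genes without a 1-symbol probe set were not analysed here.

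Differences are knockout minus wild type from limma 3.58.1 (lmFit, eBayes) in R 4.3.3 without covariates, with Benjamini-Hochberg adjustment over 45037 probe sets and a threshold of 0.05. The step was tested on simulated data. Members, lists and the rule for named genes (every member, passing genes of the other pathway lists or, with none, the 2 with the smallest p, and markers) were chosen with earlier results of these data known. No batch is labelled, and 0 pairs of arrays were identical. Residuals of same-numbered arrays correlated at 0.06, 0.08 and 0.27, which does not settle whether the numbers pair the samples. The main fit treated the samples as unpaired, and a fit with the replicate number as a block is given below. Alternatives covered variance models, array weights, dim and x or s probe sets, means of probe sets, centring, quantile normalization, the block, a threshold of 0.1 and each array left out. Promoters are RefSeq GRCm38.p6, the matching sequences of 1 gene are not reported here, and the build behind the array's annotation is not given in the sources used here. Python 3.11.15 and matplotlib 3.10.9 made the figures.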

Additional observations from a re-analysis of the deposited data

How the results depend on the processing

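Phgdh passed in all 15 alternatives that gave it a value, and it could not be fitted without x and s probe sets, where 0 members were higher. No other member passed in more than 5 of 16. Of members, 1 was lower with a trended variance and 1 with probe sets of a gene averaged. With array weights 159 genes were lower, against 101 as reported (184 higher), and with the mean of probe sets 278 were higher and 181 lower. At an adjusted p under 0.10, 2 members and 374 genes were higher, and 1 member and 272 genes lower. With the replicate number as a block (replicate block), 2 members (Phgdh and Edem1) and 292 genes were higher, and 1 member (Creld2) and 250 genes lower. With 1 array left out, 1 to 2 members and 48 to 248 genes were higher, and 0 to 2 members and 13 to 227 genes lower, the extremes for genes falling without knockout replicates 2 and 1. The median difference of the ATF6 and XBP1 targets, -0.17, was -0.13 with array weights and with the mean of probe sets, -0.15 after median centring, -0.19 after quantile normalization, and -0.20 to -0.11 with 1 array left out.

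Signs turned only for genes that did not pass. Dnajc3 stood at 0.014 with array weights, 0.015 after median centring, 0.10 with the mean of probe sets, 0.0026 after quantile normalization and -0.030 to 0.051 with 1 array left out. Hyou1 stood at -0.16 without x and s probe sets, -0.076 with the mean, -0.00977 after quantile normalization and -0.013 to 0.035 with 1 array left out. Syvn1 stood at 0.17 without x and s probe sets and 0.062 with the mean, Ssr3 at -0.0042 and Sec62 at -0.15 without x and s probe sets, and Sel1l at 0.10 with the mean. With array weights Chac1 stood at -0.0036 and Tnfrsf17 at -0.022. With 1 array left out Chac1 ran from -0.017 to 0.16, Tnfrsf17 from -0.052 to 0.081, Jchain from -0.58 to 0.076 and Psph from -0.051 to 0.19. Trib3 lay under the filter at the median level. The causes were not tested.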
